A study of Homo sapiens with 3 samples.

Results

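The cadherin superfamily and its cytoplasmic partners, the catenins, were examined in H128 cells, an established human small cell lung cancer (SCLC) line, after knockdown of ESRRG, the gene of the orphan nuclear receptor ERRγ. Members were taken by gene symbol: the numbered cadherins (CDH), protocadherins (PCDH), desmocollins and desmogleins (DSC, DSG), the giant cadherins FAT and DCHS, the seven-pass cadherins CELSR, and the α-, β- and δ-catenins (CTNNA, CTNNB1, CTNND). The symbols gave 105 members among the 17448 genes of the table, and 50 of the 105 were protocadherins of the α, β and γ clusters on chromosome 5. RNA was taken 48 h after transfection with control siRNA (siCont) or 1 of 2 ESRRG siRNAs (siERRG2, siERRG3), as 1 library each. All 3 libraries came from the same line, and it is not settled in the sources which of siERRG2 and siERRG3 is the paper's siESRRG#1. Since no condition had a second library, there was no replicate spread and no test: every difference compares libraries, and the intervals given cover counting error only.

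Classical cadherins are calcium-dependent adhesion proteins whose extracellular repeats bind cadherins of a neighbouring cell. Their tails bind β-catenin and p120-catenin, and α-catenin joins this complex to actin, while β-catenin also acts as a transcriptional coactivator in Wnt signalling. SCLC cell lines are mostly neuroendocrine, and lines of this kind often grow as loosely attached aggregates. The clustered protocadherins are neuronal cadherins, each with its own promoter, that are expressed in varied combinations from cell to cell.

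The target was lower in both ESRRG libraries. ESRRG had 806 counts with siCont, 211 with siERRG2 and 230 with siERRG3, a log2 fold change of -1.94 and -1.82. Rounded counts summed to between 19861937 and 20016780 per library, and the 105 members together took 0.137% of the counts with siCont, 0.141% with siERRG2 and 0.110% with siERRG3. Of the 9 neuroendocrine markers examined, 8 had more than 200 counts in every library, with UCHL1 the highest at 729 FPKM in siCont (FPKM is a count per transcript length and per library total), and the ninth, DDC, had between 3 and 16 counts. The 7 fibroblast markers summed to 26.9, 37.4 and 28.2 FPKM for siCont, siERRG2 and siERRG3 in turn, most of it COL1A2, while DCN and PDGFRB had at most 8 counts. Of the 5 that could be compared, 1 was past a 1.2-fold difference below siCont and 2 above it in siERRG2, and 3 below and 2 above in siERRG3. The 5 leukocyte markers summed to 4.67, 4.36 and 5.39 FPKM, and the 5 squamous epithelial markers, which include the members DSG3 and DSC3, to 2.53, 1.5 and 2.09 FPKM. The part of other cells in the results was not tested.

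A gene was compared between libraries when it had at least 10 counts in at least 1 of them, which 81 of the 105 members and 14031 genes in all did. The other 24 members were too low to compare. Lower or higher means a 1.2-fold or larger difference of CPM (counts relative to library size, scaled with edgeR's TMM method). In siERRG2, 15 of the 81 members were lower and 29 were higher than in siCont, or 18.5% and 35.8%, where 19.2% of all genes compared were lower and 16.4% were higher. In siERRG3, 48 were lower and 19 higher, or 59.3% and 23.5%, where the corresponding shares of all genes were 25.1% and 23.2%. Both comparisons share the siCont library, and in bulk RNA, fewer cells that express a gene and less of its RNA per cell cannot be told apart. When the 95% Clopper-Pearson interval of the count ratio also had to leave out 1, siERRG2 had 5 members lower and 9 higher (6.17% and 11.1%, against 12.8% and 10.2% of all genes), and siERRG3 had 31 lower and 8 higher (38.3% and 9.88%, against 19.9% and 17.1% of all genes). The median log2 fold change of the 81 members was 0.13 in siERRG2 and -0.44 in siERRG3, where that of all genes was -0.0004 and -0.0033.

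Most of the members that were lower in siERRG3 were clustered protocadherins. Of the 42 clustered members compared, 35 were lower and 2 higher in siERRG3, with a median log2 fold change of -0.88. Of the 39 members outside the clusters, 13 were lower and 17 higher, with a median of 0.18. In siERRG2 the clustered members had 8 lower and 17 higher, and the others 7 lower and 12 higher. Of all genes, 25.1% were lower and 23.2% higher in siERRG3, and 19.2% and 16.4% in siERRG2. With an interval that left out 1, the clustered members had 0 lower and 6 higher in siERRG2, and 21 and 0 in siERRG3. The others had 5 and 3 in siERRG2, and 10 and 8 in siERRG3. By this rule the shares of all genes were 12.8% and 10.2% in siERRG2, and 19.9% and 17.1% in siERRG3. Between the ESRRG libraries, 52 of the 81 members were lower in siERRG3 than in siERRG2 and 17 were higher, or 64.2% and 21%, where 25.3% and 26.4% of all genes were.

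**Figure D1:**
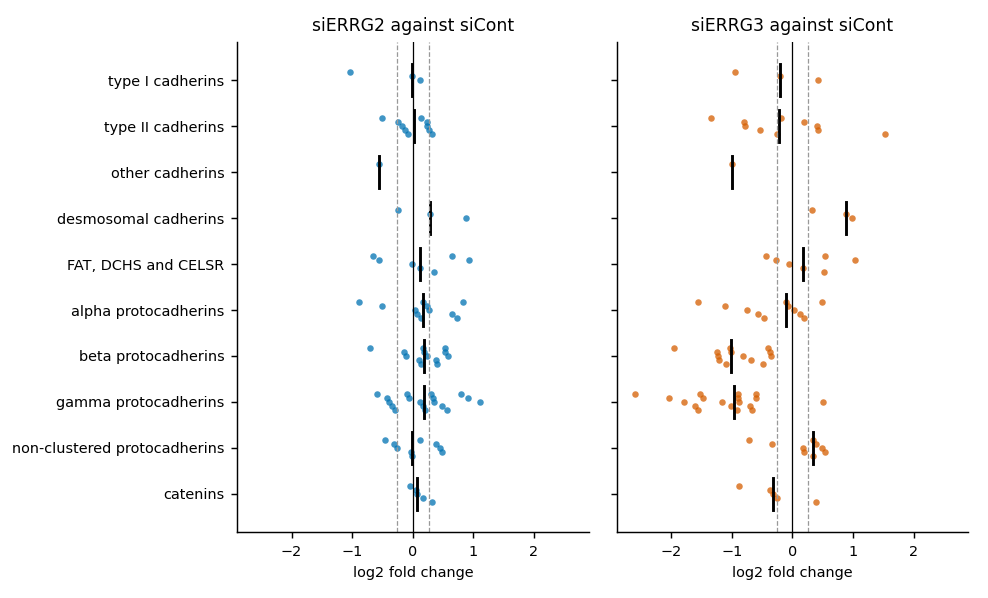
Log2 fold change against siCont (horizontal axis, log2 CPM difference) of each member compared, by family, in siERRG2 (left, blue) and siERRG3 (right, orange), with the family median as a black bar and the 1.2-fold limits as dashed lines. The β and γ protocadherins lie left of 0 in siERRG3 (medians of -1.01 and -0.97), with 1 γ member on the right, and the leftmost point, PCDHGA3, had 0 counts in siERRG3, so its place depends on the prior count. One protocadherin is not drawn, and its family's bar is the median of those drawn.

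The 4 members with the highest expression values in siCont were catenins. CTNNB1, which encodes β-catenin (gene 1499, chromosome 3, 41199505 to 41240443 in GRCh38.p14), had the highest expression value of all 105, at 60.5 FPKM with siCont, 62.5 with siERRG2 and 33.0 with siERRG3. Its counts were 4041, 4215 and 2236 in the same order. The siCont and siERRG2 libraries were close, with a ratio of 0.987 to 1.08, while siERRG3 was lower by a log2 fold change of -0.88, with a ratio of 0.517 to 0.573 (95% interval).

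CTNND1, which encodes p120-catenin and steadies cadherins at the membrane, had 2984 counts with siCont, 3171 with siERRG2 and 2352 with siERRG3. At 0.07 with siERRG2 and -0.37 with siERRG3 on the log2 scale, it was past the 1.2-fold limit in siERRG3 and within it in siERRG2. CTNNA1, the broadly expressed α-catenin, had 1700, 1937 and 1450 counts, and its log2 values of 0.17 and -0.25 were both within the limit. LRRTM2, a gene on the opposite strand inside CTNNA1, had 393, 355 and 101 counts, and whether the counting used strand is not given in the sources used here. CTNND2, the δ-catenin of neural tissue, went the other way: it had 1579 counts with siCont, 1551 with siERRG2 and 2101 with siERRG3, and its log2 fold change in siERRG3 was 0.39 (ratio of 1.23 to 1.40). The remaining α-catenins were low. CTNNA3 had 47, 60 and 38 counts, and CTNNA2 had 3, 0 and 2. In all, 3 of the 5 catenins compared were lower and 1 was higher in siERRG3, while in siERRG2 0 were lower and 1 was higher. That 1 was CTNNA3, whose interval of 0.847 to 1.89 held 1. Among all genes compared, 25.1% were lower and 23.2% higher in siERRG3, and 19.2% and 16.4% in siERRG2. With 5 genes nothing is read from the numbers of catenins called.

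**Figure D2:**
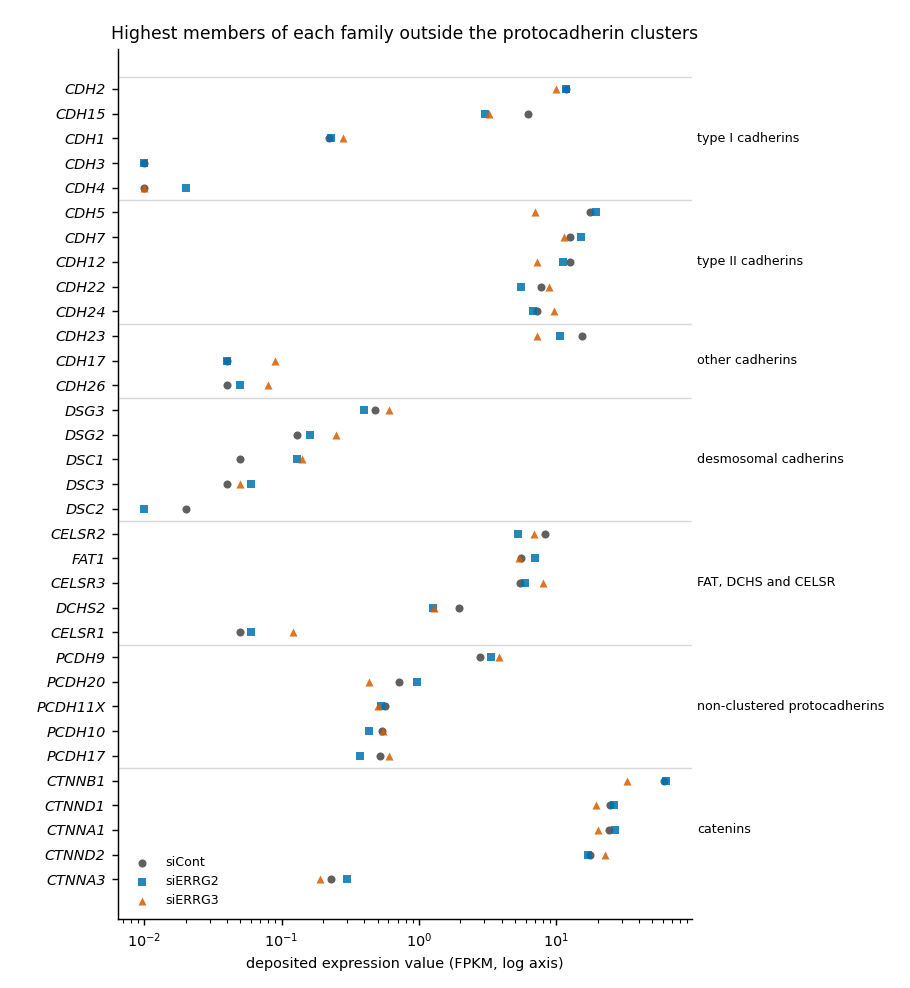
Deposited expression value (FPKM, logarithmic axis) of up to 5 members of each family outside the protocadherin clusters, those highest in siCont, in siCont (grey circles), siERRG2 (blue squares) and siERRG3 (orange triangles). CTNNB1 is the rightmost gene at 60.5 FPKM in siCont and 33.0 in siERRG3, CDH5 lies at 17.6, 19.6 and 7.06 FPKM, and CDH1 stays below 0.3 FPKM in all 3 libraries. Values of 0 cannot be drawn on this axis.

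Among the type I cadherins, which carry the classical adhesive interface, N-cadherin was the main one. CDH2 (gene 1000, chromosome 18, 27932879 to 28177130) had 11.7 FPKM with siCont, 11.7 with siERRG2 and 10.0 with siERRG3, from 940, 944 and 831 counts. Its log2 fold changes of -0.01 and -0.20 were both within the 1.2-fold limit. CDH1, the E-cadherin of epithelia, had 20, 22 and 28 counts, or 0.22, 0.23 and 0.28 FPKM. The ratio of CDH1 in siERRG3 lay between 0.748 and 2.58, so a difference from siCont was not detectable at this depth. CDH3 and CDH4 had at most 3 counts in any library.

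CDH15, the M-cadherin of muscle and cerebellum (gene 1013, chromosome 16, 89171748 to 89195492), was lower in both ESRRG libraries. It had 353 counts with siCont, 172 with siERRG2 and 186 with siERRG3, or 6.18, 3.01 and 3.23 FPKM. Both knockdown libraries thus stood near each other and apart from siCont. The log2 fold changes were -1.05 (ratio of 0.399 to 0.580) and -0.94 (0.432 to 0.621), and the ratio of siERRG3 to siERRG2 was 0.870 to 1.33.

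The type II cadherins, which have a different adhesive interface and are common in the nervous system, summed to 66.0 FPKM with siCont, 67.2 with siERRG2 and 50.7 with siERRG3. The highest was CDH5 (gene 1003, chromosome 16, 66366691 to 66404784), VE-cadherin, which is best known from the junctions of endothelial cells. CDH5 had 1456 counts with siCont, 1623 with siERRG2 and 585 with siERRG3. The siERRG2 library was slightly above siCont, by a log2 fold change of 0.14, and siERRG3 was below it by -1.34 (ratio of 0.358 to 0.435). The other endothelial markers did not accompany it: PECAM1 had 27, 20 and 25 counts, CLDN5 8, 4 and 6, and VWF, KDR and ERG 0 or 1 in every library.

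CDH7 and CDH12, the next highest, are both known from neural tissue. CDH7 (1278, 1512 and 1144 counts in the order of siCont, siERRG2 and siERRG3) stayed within the 1.2-fold limit in both comparisons (0.23 and -0.18). CDH12 had 920, 819 and 543 counts, and its log2 fold changes were -0.18 and -0.78 (ratio of 0.521 to 0.646 in siERRG3). Like CDH5, CDH12 was past the limit in siERRG3 and within it in siERRG2.

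CDH22 showed the other order, of 506 counts with siCont, 360 with siERRG2 and 590 with siERRG3. It was lower in siERRG2 (-0.51, ratio of 0.613 to 0.807) and within the limit in siERRG3 (0.20). CDH24, with 500, 476 and 675 counts, was higher in siERRG3 by 0.41 and within the limit in siERRG2 (-0.09). CDH11, a cadherin of mesenchymal cells and of osteoblasts, had 287, 361 and 166 counts. It was above siCont in siERRG2 (0.31, ratio of 1.06 to 1.46) and below it in siERRG3 (-0.81, ratio of 0.467 to 0.691). The fibroblast markers FAP and LUM had the same order of libraries. FAP had 225, 265 and 129 counts (0.22 and -0.82) and LUM had 83, 183 and 58 (1.11 and -0.53), while COL1A2 had 2043, 2896 and 2505 and COL1A1 had 181, 127 and 132. Their part in the values of CDH11 was not tested. Over the 10 type II cadherins compared, 1 was lower and 2 were higher in siERRG2, and 4 were lower and 3 were higher in siERRG3. One of the 3 was CDH20, named here after its values were seen, with 12, 15 and 39 counts and a ratio of 1.64 to 6.71 in siERRG3. The shares of all genes lower and higher were 19.2% and 16.4% in siERRG2, and 25.1% and 23.2% in siERRG3. With 10 genes nothing is read from the family's numbers of calls.

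Of the 5 cadherins outside types I and II, only CDH23 could be compared. CDH23, a component of the tip links of hair cells, had 779 counts with siCont, 534 with siERRG2 and 394 with siERRG3, or 15.3, 10.7 and 7.18 FPKM. It was lower in both ESRRG libraries, with ratios of 0.606 to 0.758 and 0.440 to 0.562. VSIR and C10orf105 lie inside CDH23 on the opposite strand with at most 59 counts, and the deposited counts of CDH23 were not whole numbers in all 3 libraries. CDH17 had 3, 3 and 6 counts, CDH26 had 4, 5 and 6, and CDH13 and CDH16 had at most 2.

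Desmosomal cadherins, which link cells through intermediate filaments in epithelia and heart muscle, were scarce: the 6 together summed to 0.72 FPKM with siCont, 0.77 with siERRG2 and 1.05 with siERRG3. DSG3 was the highest, with 53, 45 and 68 counts, and DSG2 had 15, 19 and 30. All 3 that could be compared were past 1.2-fold above siCont in siERRG3, but only DSG2 had an interval that left out 1 (0.89, ratio of 1.03 to 3.93). Among all genes compared, 23.2% were higher in siERRG3, and with 3 genes nothing is read from this number. DSC1 had 5, 11 and 12 counts, and DSC2, DSC3 and DSG4 had at most 9.

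The giant and seven-pass cadherins, which act in planar cell polarity and tissue growth, divided by member. CELSR2 had 1755 counts with siCont, 1124 with siERRG2 and 1484 with siERRG3, and its log2 fold changes were -0.66 (ratio of 0.587 to 0.683) and -0.27. The siERRG3 value of CELSR2 was close to the 1.2-fold limit, and scaling by library size alone put it inside. CELSR3, its neuronal relative, was higher in siERRG3 (1311, 1444 and 1933 counts, log2 fold changes of 0.12 and 0.54). FAT1 had 1643, 2105 and 1603 counts. It was higher in siERRG2, by 0.34 (ratio of 1.19 to 1.35), and within the limit in siERRG3 (-0.06). DCHS2, a partner of FAT-type cadherins, was lower in both ESRRG libraries, with 351, 239 and 263 counts and log2 fold changes of -0.57 and -0.44. CELSR1, FAT2, FAT3, FAT4 and DCHS1 had at most 23 counts in any library. Of the 7 members compared in this family, 2 were lower and 3 were higher in each ESRRG library. The shares of all genes lower and higher were 19.2% and 16.4% in siERRG2, and 25.1% and 23.2% in siERRG3. With 7 genes nothing is read from the numbers of calls.

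**Figure D3:**
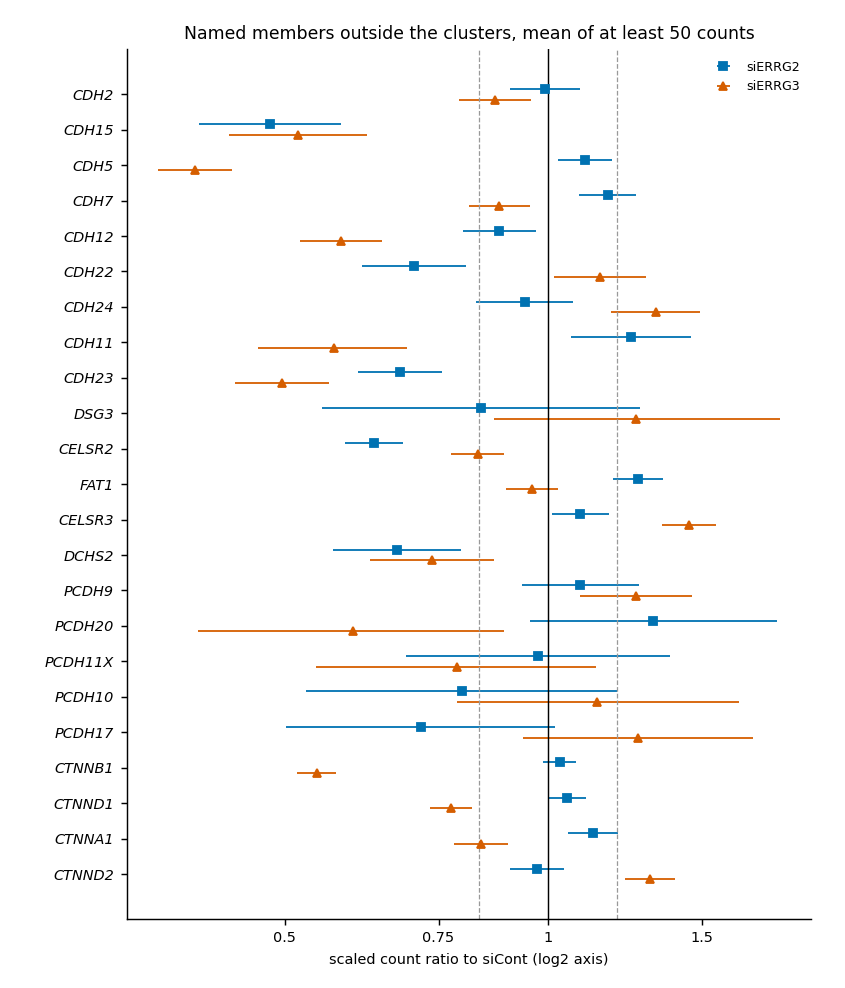
Ratio of scaled counts to siCont (logarithmic axis, base 2) with its 95% Clopper-Pearson interval, for the named members outside the protocadherin clusters with a mean of at least 50 counts, in siERRG2 (blue squares) and siERRG3 (orange triangles). Dashed lines mark the 1.2-fold limits. CDH15, CDH23, DCHS2 and CELSR2 lie past the lower limit in both libraries, CELSR2 only just so in siERRG3. CDH5, CDH12 and CTNNB1 lie past the limit in siERRG3 and within it in siERRG2, where the interval of CDH12 (0.800 to 0.968) is still left of 1.

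The clustered protocadherins are encoded in tandem between 140786140 and 141512975 on chromosome 5 (GRCh38.p14). In the α and γ clusters each variable exon has a promoter and is spliced to constant exons that the whole cluster shares, whereas each β gene is a single exon. Because of the shared exons, single α and γ variants are hard to tell apart in short reads, while the β genes have no such exons. Of all 50-letter windows of a member's longest coding transcript, a median of 56.9% in the α, 14.3% in the β and 47.9% in the γ cluster also occurred in another member, and the median was at most 0.081% in every family outside the clusters. The deposited counts were exactly whole numbers in all 3 libraries for 0 of the 50 clustered members, against 36 of the other 55. For this reason the sum over each cluster, which does not depend on how reads were divided within it, is given before the single variants.

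Promoter sequences, from RefSeq (GRCh38.p14, 250 bases before to 50 after the start), were found for 80 of the 105 members and 44 of the 50 clustered ones. The promoters of clustered protocadherins are known to hold a conserved element near the start. The windows below show, in capitals, the 12-letter run found in the largest number of a cluster's promoters, with up to 20 bases on each side. Each run was picked from these same promoters, and whether it is part of the known element was not tested. Runs were searched on the strand of the gene. The run of the β cluster, GGTGGCGCTGCA, was in 10 of 13 β promoters and in 13 of all 27305 genes (0.0476%). It is shown for PCDHB5, the most abundant β gene, and for PCDHB10, PCDHB15 and PCDHB16, where it lay between 16 and 70 bases before the start.
PCDHB5 (chr5:141135170-141135205, plus strand): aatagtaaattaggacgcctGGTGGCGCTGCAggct
PCDHB10 (chr5:141192290-141192341, plus strand): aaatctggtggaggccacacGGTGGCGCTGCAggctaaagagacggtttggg
PCDHB15 (chr5:141245305-141245356, plus strand): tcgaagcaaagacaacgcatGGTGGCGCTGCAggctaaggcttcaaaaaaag
PCDHB16 (chr5:141182301-141182352, plus strand): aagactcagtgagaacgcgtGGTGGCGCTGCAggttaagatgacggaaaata

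The run of the α cluster, CATGATGTCGCT, was in 8 of 11 α promoters and in no other gene's, or 0.0293% of all genes. In the γ cluster the most shared run, CTCTGGGCGCCG, was in 5 of 20 promoters, all of the B subfamily, and in 8 genes in all (0.0293%). They are shown for PCDHA1 and PCDHA4, which had the most counts of the α holders in siCont, for PCDHGB1, which had the most of the γ holders, and for its relative PCDHGB4.
PCDHA1 (chr5:140786074-140786125, plus strand): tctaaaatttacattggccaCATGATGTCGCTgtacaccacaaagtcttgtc
PCDHA4 (chr5:140806967-140807018, plus strand): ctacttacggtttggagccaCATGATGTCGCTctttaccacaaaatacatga
PCDHGB1 (chr5:141350011-141350062, plus strand): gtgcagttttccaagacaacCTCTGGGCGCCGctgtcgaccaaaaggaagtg
PCDHGB4 (chr5:141387603-141387654, plus strand): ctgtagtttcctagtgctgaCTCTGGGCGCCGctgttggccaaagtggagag

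The letters of the element that ERR receptors are known to bind, AAGGTCA, were searched on both strands of the same windows. They were in 1 of the 80 members (1.25%), against 4.80% of all genes. That member was PCDHGB2, where they lie on the opposite strand before the start used for the window but after the first base of the gene in RefSeq, so this stretch is not shown as a promoter. The longer form TNAAGGTCA, which contains the shorter one, was in 0 of the 80 members and in 1.17% of all genes. The E-box CAGGTG, letters known for binding repressors of CDH1, was in 8 of the 80 members (10%) and in 24.1% of all genes. CDH1 was not among the 8, and whether its promoter was among the 80 found is not given here. Of the 80, 44 were clustered protocadherins, which are related to each other, and sequence outside these windows was not searched.

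As sums, the β and γ clusters were near or below 0.5 of siCont in siERRG3. The β cluster had 1441 counts with siCont, 1690 with siERRG2 and 739 with siERRG3. Against siCont this gave a ratio of 1.16 (1.08 to 1.25) for siERRG2 and of 0.504 (0.461 to 0.551) for siERRG3. The γ cluster had 1562, 1772 and 759 counts, with ratios of 1.12 (1.05 to 1.2) and 0.478 (0.438 to 0.521). The α cluster stood apart from these, with 525, 687 and 444 counts and ratios of 1.29 (1.15 to 1.45) and 0.832 (0.731 to 0.946). All 3 clusters were thus above siCont in siERRG2 and below it in siERRG3, and the siERRG2 value was past the 1.2-fold limit in the α cluster alone.

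Of the 13 β genes compared, 13 were lower in siERRG3 and 8 of these had an interval that left out 1. Among all genes compared, 25.1% were lower in siERRG3, and 19.9% were lower with such an interval. The cluster was dominated by PCDHB5 (gene 26167), with 629 counts with siCont, 721 with siERRG2 and 317 with siERRG3, or 10.8, 12.3 and 5.39 FPKM. PCDHB5 took 43.7%, 42.6% and 42.9% of the β counts, so its share hardly moved while the cluster's total did. Its log2 fold changes were 0.18 and -1.01 (ratio of 0.432 to 0.568). PCDHB11 had the most negative value of the β genes, with 86, 93 and 21 counts and -1.96 in siERRG3 (ratio of 0.142 to 0.391), and its share went from 6.0% and 5.51% to 2.86%.

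PCDHB14 stood above siCont in siERRG2 and below it in siERRG3. It had 146 counts with siCont, 222 with siERRG2 and 72 with siERRG3, with log2 fold changes of 0.58 (ratio of 1.21 to 1.87) and -1.02 (0.361 to 0.647). PCDHB10 had 141, 131 and 59 counts (-0.12 and -1.25), PCDHB15 had 121, 138 and 69 (0.17 and -0.82), and PCDHB8 had 87, 116 and 54 (0.39 and -0.69). In siERRG2, 5 of the 13 β genes were higher and 1 was lower, and 2 of the higher ones, PCDHB14 and PCDHB16, had an interval that left out 1. The shares of all genes higher and lower in siERRG2 were 16.4% and 19.2%, and 10.2% were higher with such an interval.

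In the γ cluster 17 of the 18 members compared were lower in siERRG3, 10 of them with an interval that left out 1. The exception was PCDHGA10, with 7, 15 and 11 counts. Among all genes compared, 25.1% were lower in siERRG3, and 19.9% were lower with such an interval. PCDHGC3 (gene 5098), one of the C-type variants at the end of the cluster that are known to be used more constantly than the others, had 971, 1125 and 520 counts, or 12.1, 13.7 and 6.47 FPKM. It held 62.2% of the γ counts with siCont, 63.5% with siERRG2 and 68.5% with siERRG3, with log2 fold changes of 0.20 and -0.92 (ratio of 0.473 to 0.586).

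The A and B variants of the γ cluster were lower in siERRG3 too. PCDHGA1 had 146 counts with siCont, 188 with siERRG2 and 80 with siERRG3 (0.34 and -0.88). PCDHGB1 had 115, 94 and 27 counts, and at -2.04 (ratio of 0.146 to 0.354) its log2 fold change in siERRG3 was the most negative of the members named by rule, against -0.30 in siERRG2. PCDHGA6 had 60, 75 and 20 counts (0.30 and -1.52), and PCDHGB2 had 55, 42 and 24 (-0.39 and -1.16). PCDHGA3, with 10, 7 and 0 counts, was at least 3.39-fold lower in siERRG3 when 0 is replaced by a floor of 3 counts. The median of the γ members was -0.97 with PCDHGA3 at its fitted value and also at this bound.

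The α cluster was more mixed. PCDHAC2, its C-type variant with most counts (gene 56134), had 165 counts with siCont, 262 with siERRG2 and 192 with siERRG3. It was higher in siERRG2 by 0.64 (ratio of 1.29 to 1.92) and within the 1.2-fold limit in siERRG3 (0.19), and its share of the α counts was 31.5%, 38.1% and 43.3%. PCDHA1 had 89, 99 and 53 counts (0.13 and -0.75), PCDHA4 had 83, 95 and 38 (0.17 and -1.11) and PCDHA5 had 30, 31 and 9 (0.03 and -1.56). All 3 had intervals below 1 in siERRG3, though with FPKM in place of counts PCDHA5 was at -0.60. The other 8 α members compared were not below siCont beyond counting error in siERRG3, and over the cluster 5 of 11 were lower and 1 was higher. The shares of all genes lower and higher in siERRG3 were 25.1% and 23.2%, and with 11 genes nothing is read from the numbers of calls.

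**Figure D4:**
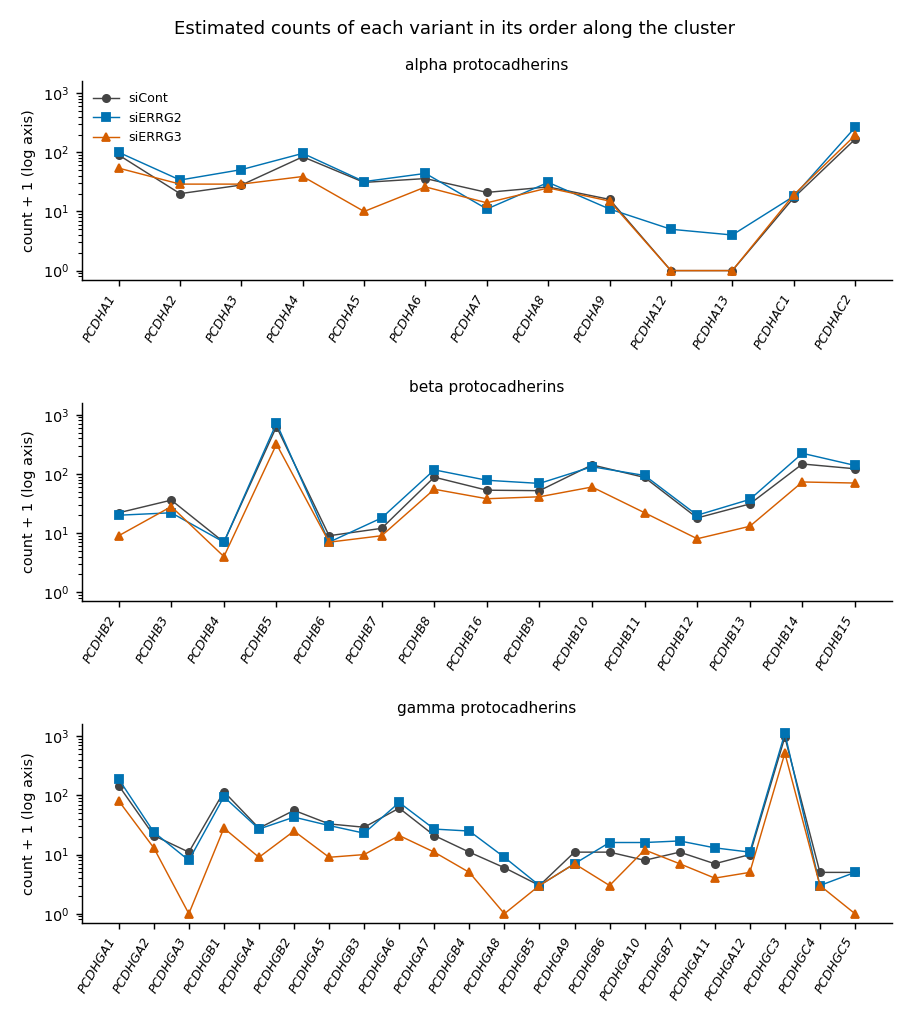
Estimated counts (plus 1, logarithmic axis) of each α, β and γ protocadherin in its order along the chromosome, in siCont (grey circles), siERRG2 (blue squares) and siERRG3 (orange triangles). PCDHB5 and PCDHGC3 are the peaks of their clusters in all 3 libraries, and the siERRG3 line lies below that of siCont along the β and γ clusters, apart from PCDHGB5, at 2 counts in both libraries, and PCDHGA10.

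**Figure D5:**
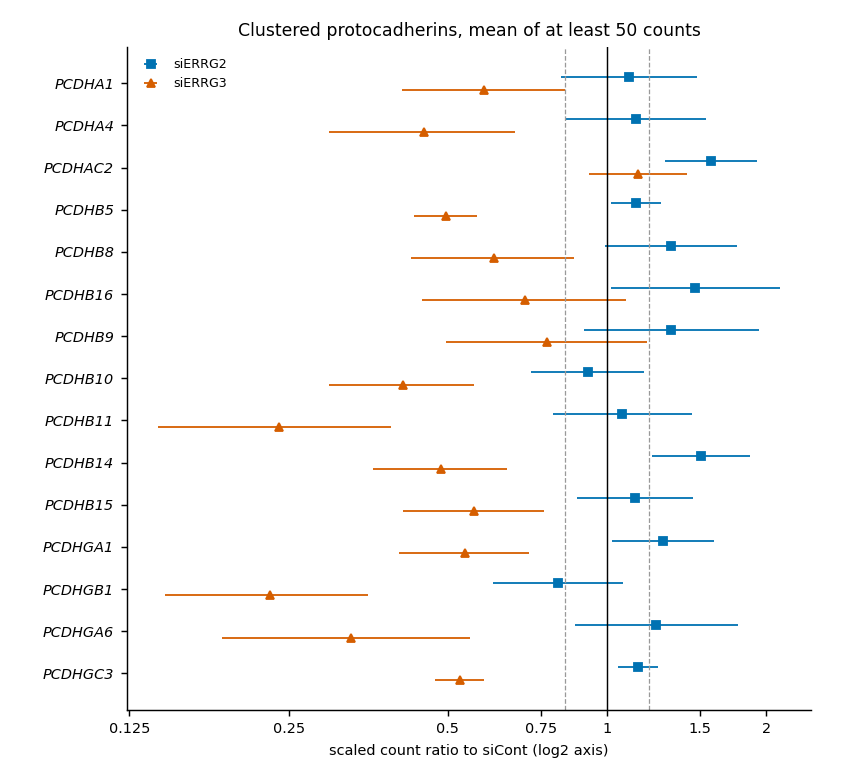
Ratio of scaled counts to siCont (logarithmic axis, base 2) with its 95% Clopper-Pearson interval, for the 15 clustered protocadherins with a mean of at least 50 counts, in siERRG2 (blue squares) and siERRG3 (orange triangles). Dashed lines mark the 1.2-fold limits. In siERRG3 all except PCDHAC2 have a ratio below the lower limit, and PCDHB16 and PCDHB9 have intervals that reach past 1, while in siERRG2 the intervals of PCDHAC2 and PCDHB14 lie above the upper limit.

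Genes around and within the clustered stretch were compared in the same way. Within 1000000 bases of the clusters, 32 genes that are no members could be compared, a set chosen after the values were seen. In siERRG3, 5 of them were lower and 6 higher, with a median log2 fold change of 0.08, and in siERRG2 also 5 were lower and 6 higher, with a median of -0.01. Of all genes compared, 25.1% were lower and 23.2% higher in siERRG3, and 19.2% and 16.4% in siERRG2. With so few genes nothing is read from these counts. LOC112267934, which overlaps α members, is among the genes lower in siERRG3, with 91, 90 and 64 counts (-0.03 and -0.52). TAF7, which lies between the β and γ clusters, had 1306, 1627 and 1143 counts.

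The protocadherins outside the clusters were low in H128 cells and moved less evenly. PCDH9 was the highest, at 324 counts with siCont, 357 with siERRG2 and 415 with siERRG3, or 2.80, 3.32 and 3.86 FPKM. It was higher in siERRG3 by 0.33 (ratio of 1.09 to 1.46). PCDH20 was lower there, with 69, 92 and 42 counts and a log2 fold change of -0.71 (ratio of 0.398 to 0.891), against 0.39 in siERRG2. PCDH17 had 80, 58 and 103 counts (-0.47 and 0.33), PCDH10 had 57, 46 and 66 (-0.31 and 0.18), and PCDH11X had 70, 69 and 56 (-0.04 and -0.34). The intervals of PCDH17, PCDH10 and PCDH11X held 1 in both comparisons, and 57.3% of the windows of PCDH11X also occur in its homologue on the other sex chromosome. Over the 10 members compared, 2 were lower and 6 higher in siERRG3, with a median of 0.33, and 2 were lower and 4 higher in siERRG2. Only 1 of the lower and 2 of the higher ones in siERRG3 had an interval that left out 1, and 0 and 1 in siERRG2. Of all genes compared, 25.1% were lower and 23.2% higher in siERRG3, and 19.2% and 16.4% in siERRG2.

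Lists of genes tied to cadherins or catenins by function, family or name, none of them members, gave the setting. Their counts stand beside 19.2% lower and 16.4% higher of all genes compared in siERRG2, and 25.1% and 23.2% in siERRG3, and with so few genes a list nothing is read from a list's counts. Among 17 plaque, cortical and catenin-related genes compared, CTNNBIP1 and CTNNBL1 included, 6 were lower and 3 higher in siERRG2, and 6 were lower and 6 higher in siERRG3. VCL, the actin linker vinculin that binds α-catenin, had 2321, 2455 and 1380 counts and was lower in siERRG3 (-0.77). ARVCF, a relative of p120-catenin, was lower in both libraries (343, 279 and 213 counts, -0.31 and -0.71). PKP2, a desmosomal plaque protein, differed in direction, with 73, 39 and 135 counts. JUP, plakoglobin, had only 26, 27 and 16 counts. Of the 3 nectins compared, 2 were lower and 1 higher in each library, and NECTIN1 held most of their expression, with 4022, 2288 and 3130 counts.

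Of 9 proteases and secretases that process cadherins, 3 were lower and 2 higher in siERRG2, and 0 were lower and 0 higher in siERRG3, a difference that was not tested. FURIN, which removes cadherin prodomains, had 731, 315 and 756 counts (-1.23 and 0.02). ADAM10, a sheddase of N- and E-cadherin, stayed within the limit, with 1188, 1309 and 1048 counts. Among 5 genes of cadherin turnover, 0 were called in siERRG2, and 1 was lower and 1 higher in siERRG3. Of 7 known repressors of CDH1, 0 were lower and 1 was higher in siERRG2, and 1 was lower and 1 higher in siERRG3, where SNAI1 had 331 counts against 207 in siCont and 185 in siERRG2. ZEB1 had 1809, 1822 and 1911 counts.

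Of 10 regulators of the clustered protocadherin promoters, such as CTCF and cohesin, 2 were lower and 0 higher in siERRG2, and 1 was lower and 1 higher in siERRG3. SMC1A, a cohesin subunit, was lower in both, with 10953, 7852 and 6536 counts (-0.50 and -0.77), while CTCF had 1892, 1710 and 1693 counts (-0.16 and -0.18). Of 15 partners of FAT-type cadherins and planar polarity genes, 3 were lower and 1 higher in siERRG2, and 5 were lower and 4 higher in siERRG3. VANGL2, a core planar polarity protein, was lower in both libraries, with 313, 244 and 138 counts, and VANGL1 was lower in siERRG3 (0.12 and -1.21). Of 5 calsyntenins and cadherin-related genes compared, 1 was lower in siERRG2 and 3 in siERRG3, with 0 higher in either. CLSTN2, a calsyntenin of the postsynaptic membrane, had 4132, 3296 and 1221 counts and log2 fold changes of -0.34 and -1.78.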

How the data were processed

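The authors deposited 1 table of 17448 genes with an estimated count (expected count) per library that was not normalized and an unnamed expression value that behaves as FPKM. The paper names BWA and Bowtie 2 and the build GRCh37/hg19; the submitters' processing notes name TopHat2, HTSeq and DESeq2, with GRCh38, hg38 and hg19. HTSeq is a counting program, but its role and its strand setting are not given in the sources used here, and the labels say paired-end where the methods name single-end reads. The table's strands matched GENCODE for 78.2% of genes, so strands are from GENCODE and positions from RefSeq. The 6 columns of the authors' comparisons (log2 ratios, Poisson p-values and adjusted values) were not used.

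Counts were rounded, genes with at least 10 counts in 1 library kept, and log2 CPM computed with TMM (edgeR 4.0.16, R 4.3.3, factors of 0.994 to 1.003) and a prior count of 2. Intervals are Clopper-Pearson (SciPy 1.17.1), conditional on both counts, and narrow with depth (0.517 to 0.573 for CTNNB1, 0.748 to 2.58 for CDH1). Computations were tested on simulated data. Members and lists were chosen with earlier results of these data known. Named by rule were all catenins, CDH1, CDH2, CDH15, the 5 members of each family highest in siCont FPKM, and members with a mean of at least 50 counts past 1.5-fold with an interval without 1. Others were named after their values were seen. Alternatives were other scalings (library size, DESeq2 1.42.0), FPKM with a pseudocount of 0.1, a prior of 0.5, other filters and thresholds, and omitting or, chosen after the data were examined, summing the clusters.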

Additional observations from a re-analysis of the deposited data

Results flagged for a closer look

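Some members differed in opposite directions in the ESRRG libraries, each past 1.2-fold with an interval that left out 1, and the difference between the effects was not tested, since each condition had 1 library and both comparisons share siCont. CDH11 had a log2 fold change of 0.31 in siERRG2 and -0.81 in siERRG3. PCDHB14 had 0.58 and -1.02, and PCDHGA1 had 0.34 and -0.88. The sums of the clusters, whose intervals also lay on opposite sides of 1, were held to no fold limit: the ratio to siCont was 1.29 in siERRG2 and 0.832 in siERRG3 for the α protocadherins, 1.16 and 0.504 for the β and 1.12 and 0.478 for the γ protocadherins. PCDHB14 and PCDHGA1 are part of the β and γ sums.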

How the results depend on the processing

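No paired analysis was possible because each condition had 1 library, and for the same reason no replicate could be left out. The numbers of members called changed with the threshold, the filter and the handling of the clusters. For the filter of 50 counts and the 1.5-fold and 2-fold thresholds the shares of all genes were not computed. Nothing about the members is therefore read from those counts. With a mean of at least 50 counts, which leaves 40 members, the numbers lower and higher were 8 and 11 in siERRG2, 24 and 6 in siERRG3, and 26 and 8 in siERRG3 against siERRG2. At 1.5-fold they were 5 and 10 in siERRG2, 36 and 5 in siERRG3, and 39 and 6 in siERRG3 against siERRG2. At 2-fold they were 1 and 1, 20 and 2, and 28 and 2. With an interval that left out 1 they were 5 and 9, 31 and 8, and 40 and 10 in siERRG3 against siERRG2. By this rule the shares of all genes were 12.8% and 10.2%, 19.9% and 17.1%, and 20.4% and 19.6%, in the same order. Without the clustered protocadherins, which leaves 39 members, siERRG2 had 7 lower and 12 higher, and siERRG3 had 13 lower and 17 higher. In siERRG3 against siERRG2, 16 were lower and 14 higher. The median log2 fold change turned from -0.44 to 0.18 in siERRG3 and from -0.45 to 0.10 in siERRG3 against siERRG2. With each cluster as 1 sum, which leaves 42 units, 7 were lower and 13 higher in siERRG2, and 16 were lower and 17 higher in siERRG3. The α sum, at a log2 value of -0.27 in siERRG3, was close to the 1.2-fold limit. At 1.2-fold, 19.2% of all genes were lower and 16.4% higher in siERRG2, and 25.1% and 23.2% in siERRG3. For siERRG3 against siERRG2 these shares were 25.3% and 26.4%. The scalings, the prior count, no filter and FPKM kept every count of members within 1.5 times, and of the named members' log2 fold changes under these and the filter of 50 counts, 511 of 512 stayed within the interval of the main value, the exception being PCDHA5 in siERRG3 (-1.56, and -0.60 with FPKM, where the cause was not tested), and 0 of those called changed sign. Scaling moved the median of all genes by less than 0.02. All settings use the same libraries, so staying within the interval was nearly fixed in advance and says nothing of replicate spread. FPKM took 2 named members out of their call in siERRG2 (DSG2 and PCDHA6) and 5 in siERRG3 (CDH1, CELSR2, PCDH11X, PCDH17 and CTNNA3). Below about 50 counts the intervals are wide, and for these members smaller differences were not detectable.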
